A study of Mus musculus with 4 samples.

Results

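Smooth-muscle spots of mouse brain sections were compared between mice lacking Pdcd10 in brain endothelium and control mice. A spot is a small field of a tissue section whose RNA was captured under 1 barcode, so it can hold several cells of different types. A spot was taken where Acta2 and Myh11, actin and myosin genes of contractile smooth muscle, gave at least 2 UMIs (unique molecular identifiers, counted RNA molecules) and placed it in the top 4% of its library by their share of UMIs. This chose 360 of 16098 kept spots, each with at least 1000 UMIs. They were 75 of 4599 spots in knockout 1, 107 of 4472 in knockout 2, 75 of 2931 in control 1 and 103 of 4096 in control 2. Tagln did not enter the rule.

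The knockouts were Slco1c1-iCreERT2;Pdcd10fl/fl mice, in which the Slco1c1 promoter drives a tamoxifen-dependent Cre in brain endothelial cells, and the controls were Pdcd10fl/fl littermates without it. Per the series' design both carry the floxed alleles, received 50 µg of 4-hydroxytamoxifen on postnatal day 1 and were analysed at day 65, and Visium libraries were made from 10 µm frozen sections, 2 libraries per group. The labels do not settle the oxygen level: titles and design give normoxia for all, the protocol gives 12% oxygen for 2 days for all, and 1 field has hypoxia for knockouts and normoxia for controls, so oxygen and genotype cannot be told apart. Whether the libraries of a group come from separate animals is not in the labels, and p-values here reflect the spread of these libraries alone, possibly a technical one.

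Smooth muscle cells wrap arteries and arterioles, set vessel width by contracting, and form the layer between the endothelium and the outer, adventitial fibroblasts. Arteries of the brain surface run in the leptomeninges, so that smooth muscle, arterial endothelium and leptomeningeal fibroblasts lie within the width of a spot. Pdcd10 (CCM3) encodes a part of the cerebral cavernous malformation complex, and its loss in endothelium leads to enlarged, leaky vessels in the brain.

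The promoters of contractile genes often hold the CArG box, the motif bound by serum response factor. Those of Acta2, which chose the spots, and of Myl9 and Filip1l, contractile genes that did not, are shown for the 250 bases before the start of the gene (RefSeq, GRCm38.p6), read 5′ to 3′ on the gene's strand, with CArG boxes in capitals. The pattern searched is strict: C at both of the first bases, then 6 bases that are each A or T, then G at both of the last. Acta2 lies on the minus strand at chr19:34255374-34255623, Myl9 on the plus strand at chr2:156775214-156775463 and Filip1l on the plus strand at chr16:57548992-57549241.
Acta2: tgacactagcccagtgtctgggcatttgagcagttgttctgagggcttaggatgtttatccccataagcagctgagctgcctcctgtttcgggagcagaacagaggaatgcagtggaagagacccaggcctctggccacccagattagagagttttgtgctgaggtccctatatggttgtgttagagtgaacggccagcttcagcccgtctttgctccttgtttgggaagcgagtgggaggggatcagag
Myl9: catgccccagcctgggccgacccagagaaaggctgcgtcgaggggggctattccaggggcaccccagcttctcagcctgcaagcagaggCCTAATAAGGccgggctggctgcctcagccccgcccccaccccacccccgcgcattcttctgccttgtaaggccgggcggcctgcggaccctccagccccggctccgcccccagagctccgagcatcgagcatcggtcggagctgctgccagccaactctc
Filip1l: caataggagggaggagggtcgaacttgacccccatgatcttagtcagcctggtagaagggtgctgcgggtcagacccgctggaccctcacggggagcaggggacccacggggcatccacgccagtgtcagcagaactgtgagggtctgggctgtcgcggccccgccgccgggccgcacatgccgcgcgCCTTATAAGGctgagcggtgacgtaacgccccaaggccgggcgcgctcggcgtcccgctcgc
A CArG box began 161 bases before the start in Myl9 and 62 in Filip1l, while the Acta2 window held no strict match. It held 2 stretches that differ from the pattern at 1 base, beginning 84 and 34 bases before the start, and 885 of 32851 promoters (2.69%) held at least 2 such stretches in the same 250 bases. No match to the strict pattern says only that these letters are not there. Searched in the whole 300-base window of the table, a CArG box stood in 4 of 28 promoters of 24 matched contractile genes (Myl9, Myl6, Vcl and Filip1l), 14.3%, and in 535 of all 32851 promoters, 1.63%. The motif reads alike on both strands. A match is a description of letters and not a shown binding site.

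The deposited counts totalled between 50148764 and 74467027 UMIs per library, of which kept spots held 98.6% to 99.5%. All libraries use the same set of array barcodes. Of these, 2560 were kept in every library, and 20 of 339 distinct barcodes of smooth-muscle spots were chosen in more than 1. The median smooth-muscle spot had 7660 UMIs in knockout 1, 11112 in knockout 2, 11806 in control 1 and 16786 in control 2, and their sums were 683269, 1605658, 940765 and 1852502 UMIs in the same order. Below, CPM is the share of a sum's UMIs on the usual CPM scale, after TMM scaling.

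The chosen spots rested on few molecules of the 2 genes. The median was 2 and 4 UMIs per spot in knockouts 1 and 2, against 3 and 4 in controls 1 and 2. The lowest share inside the limit was 2.06 and 1.82 per 10000 UMIs in the knockouts, against 1.22 and 1.15 in the controls; the highest just outside with 2 UMIs was 2 and 1.81 in the knockouts, against 1.17 and 1.14 in the controls. Acta2 was at 319 and 281 CPM in knockout spots, against 270 and 249.9 CPM in control spots. Myh11 was at 46.0 and 85.6 CPM in knockout spots, against 74.5 and 80.7 CPM in control spots. Both genes chose the spots, so these levels describe the choice. The spots held 25.7% and 37.2% of all Acta2 UMIs of kept spots in the knockouts, against 47.7% and 46.6% in the controls, so that in each library more Acta2 UMIs lay outside them than in them.

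Knockout 1 stood apart. Both Acta2 and Myh11 were seen in 22.7% of its smooth-muscle spots, against 45.8% in knockout 2 and 41.3% and 65.05% in controls 1 and 2, and 10 of its spots had at least 5 UMIs of the genes, against 42 in knockout 2 and 23 and 43 in the controls. Fibroblast genes, listed below, summed to 3942 CPM in its smooth-muscle spots, against 11404 CPM in knockout 2 and 12051 and 9774 CPM in the controls. Counts or medians of some lists below are therefore also given without knockout 1. This alternative was chosen after seeing the data and assumes that the lone knockout library varies like the controls.

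Genes that did not choose the spots bore the smooth-muscle label, in company with those of other vessel cells. In edgeR's quasi-likelihood test with library as a block, 18.4% of 16990 genes differed between smooth-muscle spots and the other kept spots of the same library, 10.4% higher and 7.95% lower. Of 26 tested genes of the contractile list, 22 were higher and 0 lower, with a median log2 difference of 1.89, against -0.06 over all genes tested. The spots were chosen in this same contrast, so the counts describe them and test nothing. Myl9, the regulatory light chain of smooth muscle myosin, was at 90.5 and 168 CPM in knockout spots, against 149 and 134 CPM in control spots, and at 15.8 to 27.3 CPM in the other kept spots of all 4 libraries. Lmod1, a nucleator of actin filaments, was at 10.1 and 11.4 CPM in knockout spots, against 8.52 and 6.12 CPM in control spots, and below 0.8 CPM in the others. Des, the muscle intermediate filament desmin, was at 0 and 4.79 CPM in knockout spots, against 5.32 and 7.24 CPM in control spots. These rest on 0 and 8 UMIs, against 5 and 13. Calponin, Cnn1, lay between 2.13 and 3.896 CPM in the spots of the 4 libraries, and tropomyosin Tpm2 between 34.5 and 57.5 CPM. The Cnn1 values rest on 2 and 6 UMIs in the knockouts, against 2 and 7 in the controls, so both Des and Cnn1 lie near the floor.

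**Figure D1:**
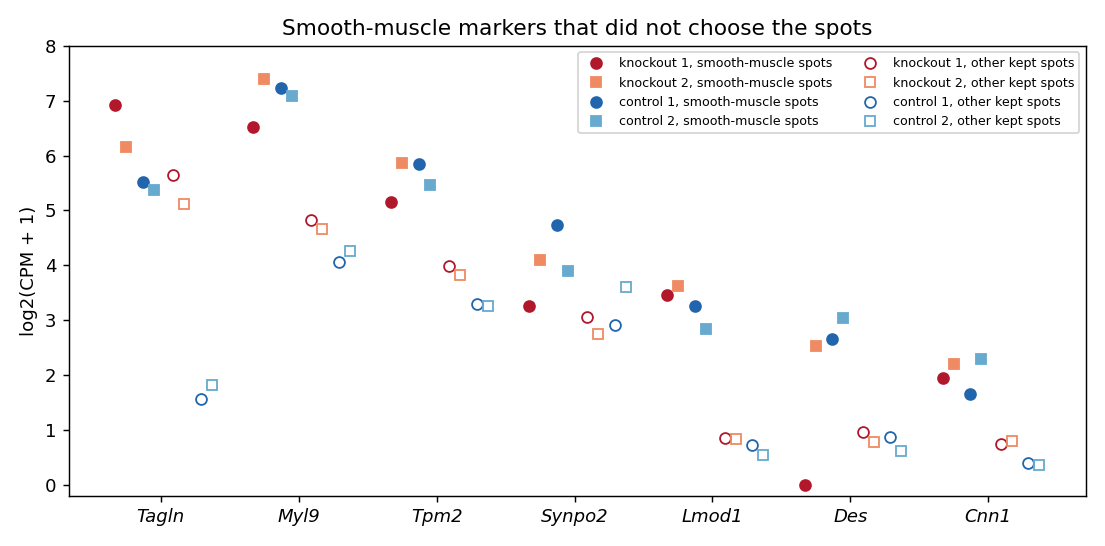
Level of 7 smooth-muscle markers that did not enter the rule, as log2(CPM + 1), with 1 point per library. For each gene the columns from left to right are smooth-muscle spots of knockouts and of controls (filled), then other kept spots of knockouts and of controls (open). Tagln is at 49.4 and 33.6 CPM in the other kept spots of knockouts, against 1.97 and 2.51 CPM in those of controls.

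Fibroblast genes led the difference from the rest of the section. Of 23 leptomeningeal and adventitial fibroblast genes, 21 were higher in smooth-muscle spots and 0 lower (median 2.84), and among the 12 genes with the largest differences were the collagens Col1a1, Col1a2 and Col3a1, the proteoglycan Lum, the growth factor Igf2 and the transporters Slc13a4 and Slc22a6. Col1a2 was at 37.4 and 168 CPM in knockout spots, against 203 and 207 CPM in control spots, and at 12.2 to 18.8 CPM in the other kept spots. The remaining 5 of the 12 were Itih2, Bmp6, Myoc, Cyp1b1 and Crispld2. Of 16 arterial endothelial genes 12 were higher, of 14 pan-endothelial genes 14, of 14 pericyte genes 11 and of 13 border macrophage genes 11, none of them lower. Neuronal genes were at the other end, with 7 of 12 lower, and the 8 largest negative differences were Egr4, Lamp5, Cpne7, Celf3, Bhlhe22, Vip, Kcnf1 and Hs3st4. The spots are therefore called smooth-muscle spots here, since the lists point to vessels with fibroblasts around them and spot positions were not analysed.

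Spot by spot, classes of other vessel cells overlapped with smooth-muscle spots. A spot was called rich in a class where it was in the top 4% of its library by the share of UMIs from that class's list and had at least 2 UMIs of the list. For sparse lists fewer than 4% of kept spots were therefore rich, such as 1.42% to 2.57% for border macrophages. Spots rich in arterial endothelial genes were 8% of smooth-muscle spots in knockout 1 (95% Wilson interval 3.72% to 16.4%) and 41.1% in knockout 2 (32.3% to 50.6%), against 42.7% (32.1% to 53.9%) in control 1 and 40.8% (31.8% to 50.4%) in control 2. Spots rich in fibroblast genes were 5.33% and 21.5% in the knockouts, against 18.7% and 27.2% in the controls. Spots rich in vessel wall matrix genes were 17.3% and 52.3% in the knockouts, against 34.7% and 27.2% in the controls. Spots rich in neuronal genes were 0% and 1.87% in the knockouts, against 0% and 0% in the controls. Of 14 classes counted, 3 had both knockouts below both controls. With no difference between groups, 2 and 2 libraries lie apart, in either direction, with probability 0.333 per class, so the count was not read as a result. Spots rich in reactive astrocyte genes were 5.33% and 12.1% in the knockouts, against 33.3% and 23.3% in the controls, those rich in border macrophage genes 4% and 7.48%, against 20% and 17.5%, and those rich in erythrocyte genes 10.7% and 3.74%, against 16% and 17.5%. The count depended on depth: with every spot thinned to 5000 UMIs, shallower spots left out and spots chosen anew (35 and 62 in the knockouts, 29 and 56 in the controls), 9 of the 14 classes had both knockouts below both controls. Spots rich in arterial endothelial genes were then 20% and 40.3% in the knockouts, against 62.1% and 62.5% in the controls, and those rich in fibroblast genes 2.86% and 14.5%, against 41.4% and 37.5%. So with thinned spots knockout 2, too, lay below both controls for these classes. Ties between thinned spots made the limits unequally wide for some lists, on which the 9 of 14 classes also rest. Spots rich in arterial endothelial genes were 5.89% and 4.07% of all thinned spots in the knockouts, against 6.40% and 5.32% in the controls. Those rich in fibroblast genes were 4.23% and 4.24%, against 4.06% and 4.11%. The limits were set within each library, so a share says how far these genes gathered in smooth-muscle spots and not how high they were. No share was tested, since the smallest two-sided p of an exact permutation test is 0.333 with 2 libraries a group, and the intervals cover counting error only.

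**Figure D2:**
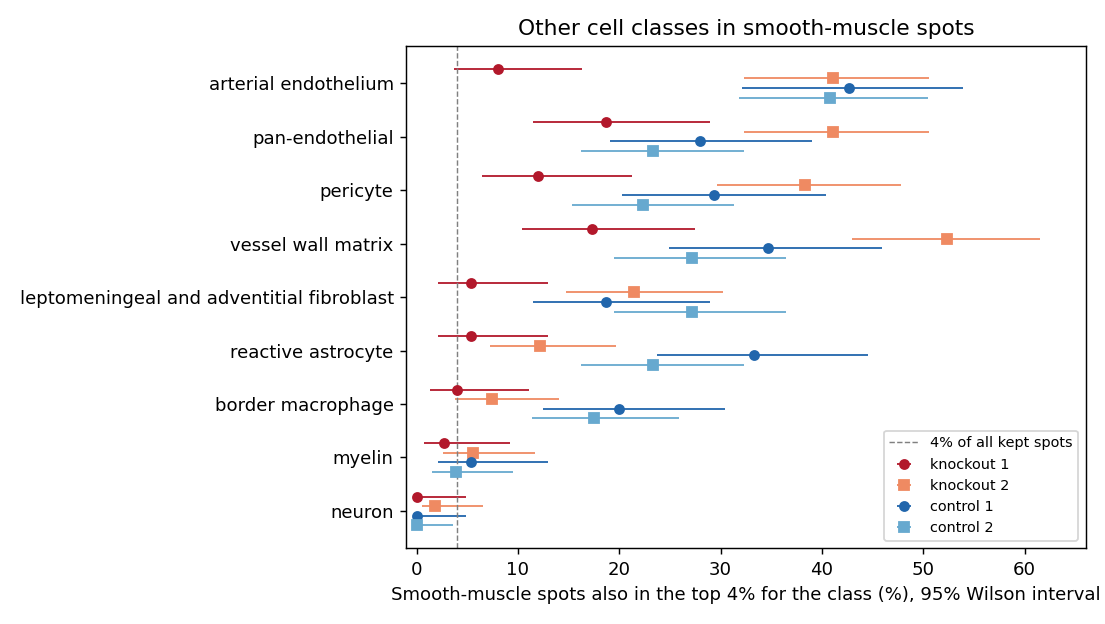
Share of smooth-muscle spots that were also in the top 4% of their library, with at least 2 UMIs, for 9 of the 14 cell classes, in percent. Bars are 95% Wilson intervals, with 1 point per library and knockouts above controls. In knockout 1 the share rich in arterial endothelial genes is 8%, while the other 3 libraries lie between 40.8% and 42.7%, which did not hold with spots thinned to 5000 UMIs, where knockout 2 is at 40.3% and the controls at 62.1% and 62.5%.

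Spots with at least 5 UMIs of Acta2 and Myh11 held more arterial endothelial and fibroblast genes than those with 2 UMIs in every library. In spots with at least 5 UMIs of the pair, arterial endothelial genes made up 7.07 and 20.3 of 10000 UMIs in the knockouts, against 18.3 and 16.3 in the controls. In spots with 2 UMIs they made up 4.84 and 6.55, against 7.39 and 3.42, and in the other kept spots 2.99 and 3.06, against 2.03 and 1.97. Fibroblast genes reached 77.8 and 146 per 10000 in knockout spots with at least 5 UMIs, against 221 and 137 in control spots. The order was not kept at every step: in control 1 arterial endothelial genes were at 6.54 per 10000 in spots with 3 or 4 UMIs, below the 7.39 at 2 UMIs. Fibroblast genes were lower in spots with 3 or 4 UMIs than in those with 2 in 3 of 4 libraries: 20.2 against 30.9 in knockout 1, 48.0 against 72.7 in control 1 and 39.1 against 79.8 in control 2. In knockout 1 the 20.2 was also below the 26.6 of its other kept spots. Spots with 2 UMIs were 42 of 75 in knockout 1.

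**Figure D3:**
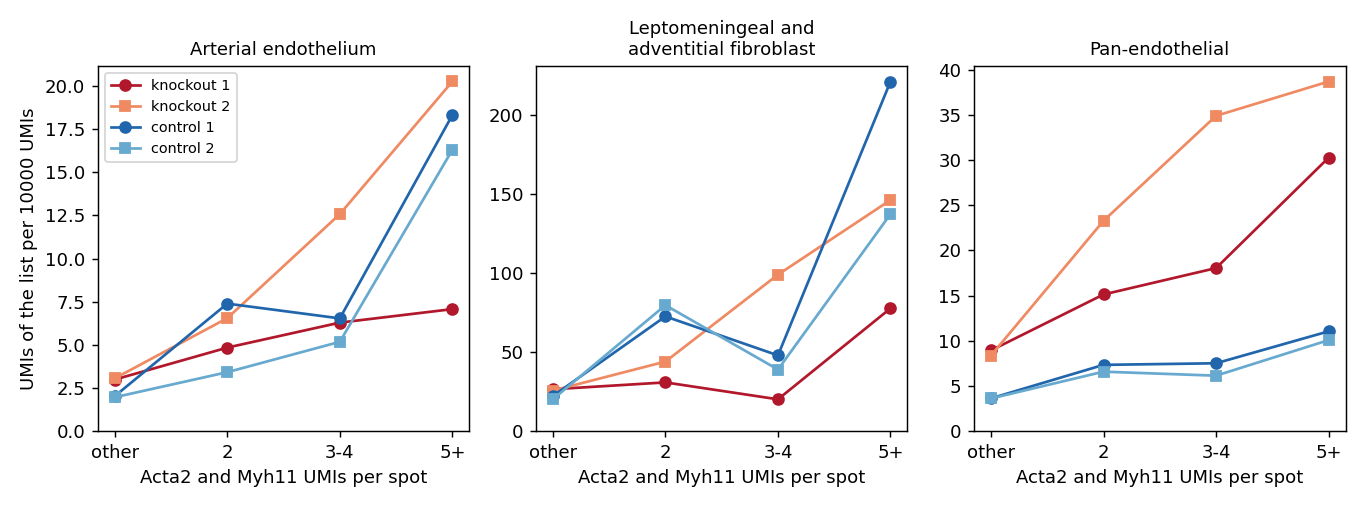
UMIs of 3 gene lists per 10000 UMIs in other kept spots and in smooth-muscle spots with 2, 3 or 4, and at least 5 UMIs of Acta2 and Myh11, with 1 line per library. Pan-endothelial genes lie higher in both knockouts than in both controls at every step, and reach 30.3 and 38.7 in the knockouts against 11.05 and 10.1 in the controls at 5 or more UMIs.

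Between genotypes, smooth-muscle spots of knockouts had higher endothelial, reactive astrocyte and phagocyte genes and lower myelin genes. Of 21 contractile genes tested, 2 rose and 1 fell. By edgeR, with p-values adjusted after Benjamini and Hochberg, 602 of 11241 genes tested passed (5.36%), 374 higher (3.33%) and 228 lower (2.03%) in knockouts, 404 of them by at least 2-fold (3.59%). Without knockout 1 it was 953 of 12344 genes, 587 higher (4.76%) and 366 lower, among them 563 of the 602. Where a count of lost calls is given below, it is over at most 21 alternatives of spot choice, test and libraries left out. Pdcd10, the targeted gene on chromosome 3 from 75516490 to 75556852, was at 74.7 and 64.1 CPM in knockout spots, against 88.4 and 71.8 CPM in control spots (log2 fold change -0.17, SE 0.209, edgeR adjusted p 0.752). The deletion is meant for endothelial cells alone, and a 3′ tag may lie outside it, so this level checks nothing about the labels. In spots, fewer cells of a type and less RNA per cell cannot be told apart. A filter on low counts left 395 of the 517 list genes tested in smooth-muscle spots; the other 122 had too few counts there.

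The 21 tested contractile genes had a median log2 fold change of 0.11, against 0.00 over all genes tested. Of them 2 rose (9.52%) and 1 fell (4.76%), against 3.33% and 2.03% of all genes tested, and 18 did not pass. Without knockout 1 it was 4 and 1 of 23. Mustn1, a small nuclear protein of muscle, was at 28.7 and 52.7 CPM in knockout spots, against 16.0 and 17.3 CPM in control spots (2.67-fold, edgeR adjusted p 0.00927). Tagln, the actin-binding protein transgelin, was at 121 and 70.0 CPM in knockout spots, against 44.7 and 40.6 CPM in control spots (log2 fold change 1.15, SE 0.256, edgeR adjusted p 0.0125). The groups did not overlap for either gene, but both rises depended on how spots were chosen. Mustn1 lost its call under 5 of 20 alternatives, in the top 2%, with Myh11 alone, with the same share limit, with DESeq2 and without knockout 2, with values down to 0.70. Tagln lost its call under 8 of 21, without control 2 among them: its log2 fold change was 0.04 with spots scored by Myh11 alone (edgeR adjusted p 0.964), 0.65 with at least 5 UMIs (0.404), 0.77 in the top 2% (0.400) and 0.63 with the same share limit in all libraries (0.283), an alternative chosen after seeing the data. Ppp1r14a, an inhibitor of myosin phosphatase that oligodendrocytes also express, was at 47.4 and 37.7 CPM in knockout spots, against 148 and 114 CPM in control spots (log2 fold change -1.60, SE 0.221, edgeR adjusted p 0.000154). Myl9 and Filip1l, whose promoters are shown above, had log2 fold changes of -0.03 (SE 0.230) and 0.81 (SE 0.345) and did not pass (edgeR adjusted p 0.974 and 0.222).

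Of 11 regulators 2 rose (median 0.49), both of them Krüppel-like factors that endothelium also expresses. Klf4 was at 48.8 and 97.0 CPM in knockout spots, against 11.7 and 22.8 CPM in control spots (4.28-fold, edgeR adjusted p 0.00322), and Klf2 at 102 and 170 CPM, against 83.0 and 60.7 CPM (2.05-fold, 0.0198). Of 10 channels and receptors 1 rose, the phosphodiesterase Pde3a, at 27.3 and 50.3 CPM in knockout spots, against 19.2 and 17.8 CPM in control spots (2.33-fold, edgeR adjusted p 0.0244). Klf2 lost its call under 7 of 21 alternatives and Pde3a under 7 of 20, for both genes without control 2 and without knockout 2 among others, and Klf4 under 1. Synthetic smooth muscle genes mark the non-contractile state but are also expressed by glia and macrophages. Of 13 tested, 6 rose and 0 fell (median 1.47, or 1.70 without knockout 1), against 3.33% and 2.03% of all genes. In the other kept spots 10 of 14 rose and 1 fell (median 1.17), against 20.2% and 18.5% of all genes there. S100a6, a calcium-binding protein, was at 704 and 729 CPM in knockout spots, against 154 and 129 CPM in control spots (log2 fold change 2.39, SE 0.158, edgeR adjusted p 3.06e-08), and osteopontin, Spp1, rose 8.47-fold.

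Pericyte genes, of the mural cells of capillaries, rose in 2 of 12 cases (median 0.49, or 0.68 without knockout 1). In the other kept spots 4 of 14 rose and 1 fell (median 0.23), against 20.2% and 18.5% of all genes there. Higd1b was at 33.04 and 30.5 CPM in knockout spots, against 7.45 and 5.57 CPM in control spots (5.12-fold, edgeR adjusted p 0.000507), and the G-protein regulator Rgs5 at 134 and 239 CPM, against 78.8 and 101 CPM (2.17-fold, 0.0165). Of 12 Notch genes 2 rose, the receptor Notch4 (3.40-fold, edgeR adjusted p 0.00313) and the ligand Jag2 (2.05-fold, 0.0341). In the other kept spots 3 of 13 Notch genes rose and 2 fell (median 0.21). Jag2 lost its call under 11 of 21 alternatives, without control 1 or knockout 2 among them, with values down to 0.43, and Notch4 under 6, without control 2 among them. Rgs5 lost its call under 4, without knockout 2 among them. The other lists with few calls were fibroblast genes, with 0 rises and 1 fall (Lum) among 21 and a median of -0.48, or 0.04 without knockout 1, and border macrophages, with 1 rise (F13a1) among 7.

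Arterial endothelium split by gene. Of 13 tested genes 2 rose and 1 fell (median 0.14), and 5 rose and 2 fell of 15 without knockout 1. Gkn3, a gene of arterial endothelium in brain, was at 0 and 2.39 CPM in knockout spots, against 97.9 and 105 CPM in control spots (log2 fold change -5.81, SE 0.414, edgeR adjusted p 6.15e-08). It passed under all 21 alternatives, with values from -9.86 to -5.33. It was as low outside the spots, at 0.246 and 0.161 CPM in other kept spots of knockouts, against 10.49 and 13.9 CPM in those of controls. Sema3g, a secreted semaphorin, was at 23.0 and 31.7 CPM in knockout spots, against 11.7 and 13.4 CPM in control spots (2.30-fold, edgeR adjusted p 0.0390). Fbln5, an elastic fibre protein, rose 1.78-fold (edgeR adjusted p 0.0198). It is also counted in the vessel wall matrix and reactive astrocyte lists and rose in the other kept spots too, as given below, so its rise cannot be assigned to arterial endothelium. Fbln5 lost its call under 9 of 21 alternatives, and its value was -0.00226 in the top 2% and -0.44 with thinned spots. Sema3g lost its call under 9 of 20. Both failed without control 1, control 2 or knockout 2. Mgp, the calcification inhibitor matrix Gla protein, was at 276 and 1073 CPM in knockout spots, against 640 and 640 CPM in control spots, so that the knockouts lay on both sides.

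General endothelial genes rose together. Of 14 pan-endothelial genes 11 rose and 0 fell, with a median log2 fold change of 1.25, or 1.52 without knockout 1. In the other kept spots, where 20.2% of all genes rose, 11 of 14 rose too (median 1.02). Cldn5, the tight-junction claudin, was at 318 and 480 CPM in knockout spots, against 104 and 112 CPM in control spots (log2 fold change 1.93, SE 0.189, edgeR adjusted p 5.31e-06). Esam, an adhesion molecule, rose 3.31-fold, Pecam1 2.90-fold and the adrenomedullin co-receptor Ramp2 2.76-fold. Slc2a1, the glucose transporter of the blood-brain barrier and a gene of the hypoxia list, was at 575 and 834 CPM in knockout spots, against 214 and 208 CPM in control spots (3.45-fold, edgeR adjusted p 4.22e-06). The 5 genes were named for their small p, so that their groups lay apart describes the choice. Pecam1 lost its call under 4 of 21 alternatives, with values down to 0.80, and Esam and Ramp2 under 1 each. Cldn5 and Slc2a1 lost it under 0.

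Genes tied to cavernous malformations rose in part. Of 11 genes of the CCM complex and its targets 4 rose and 0 fell (median 0.81): Klf4, Klf2, Adamts1 and Ccm2l. In the other kept spots 6 of 15 rose and 2 fell (median 0.23). Adamts1, a protease of the matrix proteoglycan versican, was at 84.8 and 127 CPM in knockout spots, against 30.9 and 40.1 CPM in control spots (3.08-fold, edgeR adjusted p 0.000242). Of 14 clotting genes 8 rose and 0 fell (median 1.11), and 11 of 16 rose in the other kept spots (median 0.97), against 20.2% of all genes there. Procr, the endothelial protein C receptor, was at 17.2 and 22.8 CPM in knockout spots, against 2.13 and 1.67 CPM in control spots (11.2-fold, edgeR adjusted p 0.000396), and Thbd, thrombomodulin, rose 2.90-fold. Of 25 genes of TGF-beta and BMP signalling 7 rose and 0 fell (median 0.42), among them the BMP receptor Acvrl1 (2.58-fold) and the matricellular proteins Ccn1 (3.38-fold) and Ccn2 (2.09-fold). In the other kept spots 15 of 27 genes of this list rose and 5 fell (median 0.40). Acvrl1 lost its call under 7 of 21 alternatives, without knockout 2 among them, and Ccn1 under 4, with values down to 0.30. Ccn2 lost its call under 5, and with Myh11 alone its value was -0.14. Thbd lost its call under 3 and Ccm2l under 6 of 16, without control 2 or knockout 2 among them for Ccm2l.

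Among matrix genes, basement-membrane collagens rose and the fibrillar collagen Col1a2 did not pass. Of 35 vessel wall matrix genes 8 rose and 2 fell, with a median of 0.22, and 13 of 39 rose without knockout 1, with a median of 0.68. The 2 falls were Eln, elastin, at 7.18 and 21.0 CPM in knockout spots, against 52.2 and 57.3 CPM in control spots (log2 fold change -1.71, edgeR adjusted p 0.00222), and Mfap4, a protein of elastic fibres, at 1.44 and 2.39 CPM, against 13.8 and 22.8 CPM (-3.10, 0.00173). Basement-membrane collagens Col4a1 and Col4a2 were at 175 and 195 CPM and at 118 and 161 CPM in knockout spots, against 63.9 and 74.6 CPM and 34.1 and 44.5 CPM in control spots (edgeR adjusted p 4.99e-05 and 2.74e-05). Sparc, a collagen-binding protein, was at 1836 and 2415 CPM in knockout spots, against 811 and 799.9 CPM in control spots. Timp1, an inhibitor of matrix metalloproteinases, rose 13.1-fold. Fibrillar collagen Col1a2, given above, had a log2 fold change of -0.83 (SE 0.777, edgeR adjusted p 0.720).

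**Figure D4:**
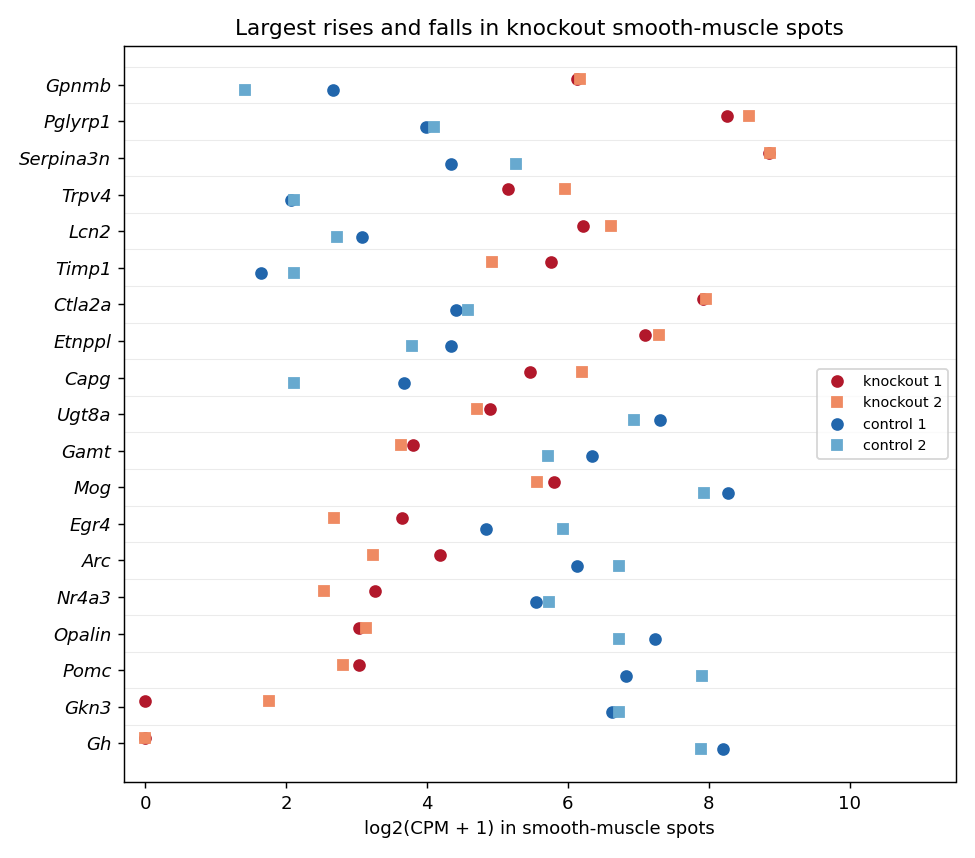
The 9 largest rises and 10 largest falls among genes that passed, had both groups apart and averaged at least 20 CPM over smooth-muscle spots, as log2(CPM + 1) with 1 point per library and knockouts above controls in each row. Both knockouts lie right of both controls for each of the 9 rises and left of them for each of the 10 falls, as the choice of genes required.

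The 9 largest rises were Gpnmb, Pglyrp1, Serpina3n, Trpv4, Lcn2, Timp1, Ctla2a, Etnppl and Capg. Gpnmb, a glycoprotein of phagocytes, was at 69.0 and 71.2 CPM in knockout spots, against 5.32 and 1.67 CPM in control spots (23.7-fold, edgeR adjusted p 4.04e-07). Pglyrp1, a peptidoglycan recognition protein, rose 22.4-fold, Serpina3n, a protease inhibitor of reactive astrocytes, 15.9-fold, and Trpv4, a calcium channel gated by osmotic and mechanical stimuli, 15.5-fold. Each of these 9 genes passed under every alternative that tested it. Of 15 reactive astrocyte genes 12 rose and 0 fell (median 1.47), of 14 activated phagocyte genes 9 rose (median 1.31), and of 11 complement genes 6 rose (median 1.11). In the other kept spots 18 of 18 (median 2.40), 14 of 16 (1.78) and 13 of 15 (1.47) rose in that order. C4b, a complement component beside its near-identical copy C4a and therefore uncertain, rose 3.32-fold. Of 20 interferon response genes 3 rose (Ifitm2, Ifitm3 and Lgals3bp; median 0.60), while in the other kept spots, where 38.7% of 17495 genes passed and 20.2% rose, 22 of 22 rose (median 1.60). In smooth-muscle spots the calls of Ifitm2, Ifitm3 and Lgals3bp were lost under 8, 8 and 9 alternatives. No gene of the list passed the test of the difference between the spot classes, and the sums of the other kept spots hold far more UMIs.

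Genes of myelin and of tissue outside the vessels fell. All 8 myelin genes fell (median -2.01), and 7 of 8 fell in the other kept spots too, where 18.5% of all genes fell. Opalin, a membrane protein of oligodendrocytes, was at 7.18 and 7.78 CPM in knockout spots, against 150 and 105 CPM in control spots (log2 fold change -3.99, SE 0.304, edgeR adjusted p 1.52e-07). Growth hormone, Gh, of the pituitary had 0 UMIs in both knockouts, against 293 and 236 CPM in controls, at least 209-fold lower at a floor of 3 counts over both knockout sums. Its call was lost under 5 of 20 alternatives, among them those without fibroblast-rich spots and in the top 2%. The 8 pituitary genes together were at 7.18 and 5.99 CPM in knockout spots, 7 of 8 at 0 in each knockout, against 1196 and 564 CPM in control spots. They were low in the other kept spots of knockouts too, at 6.82 and 6.79 CPM, against 203 and 75.4 CPM in those of controls. The other large falls were Pomc and the activity-induced genes Nr4a3, Arc and Egr4, and Mog, Gamt and Ugt8a of oligodendrocytes. The 4 haemoglobin genes summed to 2139 and 1610 CPM in knockout spots, against 4163 and 2716 CPM in control spots, and 2 of the 5 genes of the erythrocyte list fell, Hbb-bs and Hbb-bt. Both lost their calls in the top 8% and without fibroblast-rich spots. Of the 10 choroid plexus genes 2 were tested and fell. Enpp2 was at 96.3 and 103 CPM in knockout spots, against 285 and 252 CPM in control spots, and Ttr at 0 and 1.80 CPM, against 29.8 and 46.2 CPM. The other 8 together were at 24.4 and 46.1 CPM in knockout spots, against 34.1 and 26.7 CPM in control spots, so that the groups overlapped. Spots were also left out where pituitary and choroid plexus genes together made up at least 0.5% of UMIs. Then 590 of the 601 genes still tested passed, and Pomc (-3.08, edgeR adjusted p 0.429) and Lum (-1.12, 0.0739) were among those that did not. This kept all 75 and 107 smooth-muscle spots of the knockouts, and 73 of 75 and 100 of 103 in the controls. So few spots were removed that the count says little about the part of these tissues. The part of these tissues, and of the fibroblasts, in the other differences was not tested further.

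The change in smooth-muscle spots was set against that in the rest of the section by testing their difference. Few genes parted: 12 of 16990 (0.0706%) passed edgeR's test, 2 with a more positive change in smooth-muscle spots (0.0118%) and 10 with a more negative one (0.0589%). The count depends on the treatment of single-gene spread, and the fit used was chosen after the counts were seen. edgeR's default fit, the plainest reading of the planned test, called 79, with a robust prior 66, and adjusted deviances without the robust prior 5. The 12 genes were among the 79 and the 66. Without control 1 or without control 2, 0 passed edgeR's test (421 and 439 with unadjusted p under 0.05). Tagln parted most among genes of at least 20 CPM. In smooth-muscle spots it was 2.44 and 2.09 times as high as in the other kept spots of the knockouts, against 22.7 and 16.2 times in the controls (difference -3.05 on the log2 scale, SE 0.254, edgeR adjusted p 6.21e-05). In the other kept spots it was at 49.4 and 33.6 CPM in knockouts, against 1.97 and 2.51 CPM in controls, 18.3-fold (edgeR adjusted p 1.61e-05). Myl9, by contrast, was at 27.3 and 24.4 CPM there in knockouts, against 15.8 and 18.2 CPM in controls, and its difference between the spot classes was -0.68 (SE 0.289, edgeR adjusted p 1.00).

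Fbln5 and Vim followed the same course. Fbln5 was 1.37 and 1.62 times as high in smooth-muscle spots as in the others in knockouts, against 10.2 and 10.7 times in controls (difference -2.78, SE 0.219, edgeR adjusted p 5.79e-05). Vim, the intermediate filament vimentin, was 1.70 and 1.39 times as high in knockouts, against 7.28 and 4.97 times in controls (difference -1.96, SE 0.184, edgeR adjusted p 0.000186). Both rose in the other kept spots, 11.9-fold and 13.2-fold. Igfbp2, an IGF-binding protein (-1.73), Gfap, the astrocyte filament (-1.27), C4b (-1.43) and the proteoglycan Fmod (-1.49) had differences of the same sign. Their calls were lost under 6, 10, 12 and 11 of 21 alternatives in that order. The 3 further genes, below 20 CPM and named after their values were seen, were Mfap4 (-3.84), S100a8 (-3.32) and S100a9 (-2.71). The 2 neutrophil genes S100a8 and S100a9 were at 11.4 to 18.7 CPM in smooth-muscle spots of knockouts, against 11.7 to 21.7 CPM in those of controls, so that the contrast lay in the other kept spots.

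Pglyrp1 and Dusp1 went the other way. Pglyrp1 was 2.04 and 2.70 times as high in smooth-muscle spots as in the others in knockouts, against 0.769 and 0.885 times in controls (difference 1.501, SE 0.246, edgeR adjusted p 0.0463). Dusp1, a phosphatase induced by stress and glucocorticoids, was at 90.5 and 129 CPM in knockout spots, against 58.6 and 66.8 CPM in control spots, but at 58.9 and 57.7 CPM in the other kept spots of knockouts, against 85.6 and 78.2 CPM in those of controls (difference 1.31, SE 0.222, edgeR adjusted p 0.0498). Both adjusted values lie near the threshold, and each call was lost under 13 of 21 alternatives. Neither gene passed without control 1, without control 2 or without knockout 2. Gkn3 had a difference of 0.06 (SE 0.608), so its fall was not shown to differ between the spot classes.

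**Figure D5:**
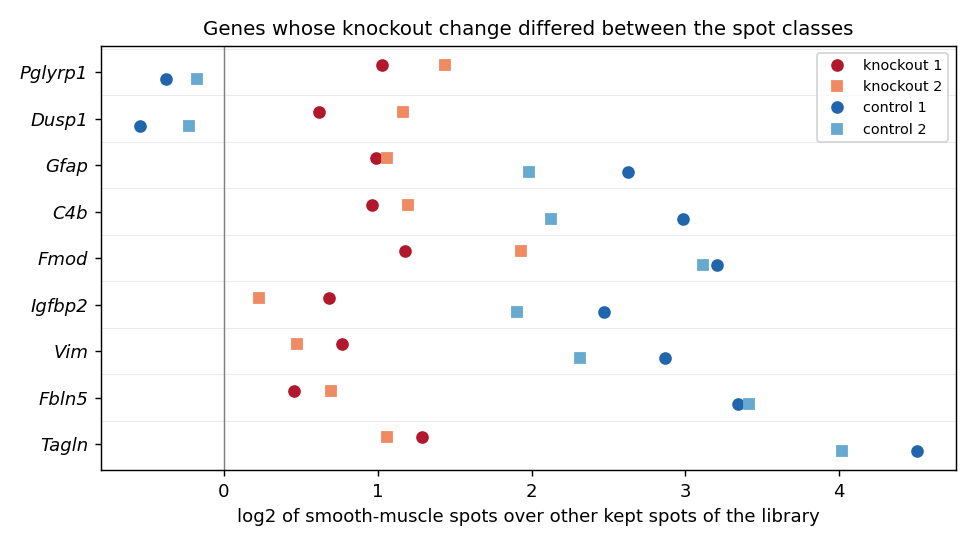
Level in smooth-muscle spots over the level in the other kept spots of the same library, on a log2 scale, for the 9 genes of at least 20 CPM whose knockout change differed between the classes, with 1 point per library and knockouts above controls. For Pglyrp1 and Dusp1 the knockouts lie right of 0 and the controls left of it, while for the other 7 genes all libraries lie right of 0 and the controls farther out.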

How the data were processed

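The authors deposited raw, not normalised UMI counts of 32285 genes for each spot barcode. Per the submitters' processing notes, reads were processed with Space Ranger on mm10; the version is not given in the sources used here. Spots with at least 1000 UMIs were kept. No call of spots over tissue and no spot positions were used, and no doublet caller was run. Groups came from the labels. The members, gene lists (37) and tests were chosen with earlier results of these data known.

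Counts were summed per library over smooth-muscle spots and over other kept spots and fitted with edgeR 4.0.16 in R 4.3.3 (TMM, filterByExpr, quasi-likelihood test with adjusted deviances and a robust prior, Benjamini-Hochberg over all genes tested, threshold 0.05). The planned test named only edgeR's quasi-likelihood test. Its default fit gave the 8 sums an infinite prior weight, which leaves out a gene's own spread between libraries. After this was seen, 4 settings were run, and their counts of genes differing between spot classes were known when 1 was chosen: 79 with the default, 66 with the default and a robust prior, 5 with adjusted deviances, and 12 with both, the setting used. Differences between spot classes had library as a block. Log2 fold changes are knockout over control. Acta2 and Myh11 were left out of the calls. The scripts were tested on simulated data.

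Named genes were, per list, up to 4 that passed with the smallest p (2 with the highest mean where fewer than 2 passed), the 10 largest rises and falls whose groups did not overlap, at 20 CPM or more on average, the 10 largest differences between spot classes in each direction, and the 12 most positive and 8 most negative differences from other kept spots. Predicted symbols were not named, and a few genes that the rule names are not reported here. Other contractile, collagen and neutrophil genes given with values were added after their values were seen. Replicates differed by more than sampling noise (chi-square per degree of freedom 3.15 in knockouts and 2.28 in controls). Samples with the same number did not deviate together (r = -0.0967 across genes, which are not independent replicates). Promoters came from RefSeq.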

Additional observations from a re-analysis of the deposited data

Results flagged for a closer look

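For 9 named genes the knockout change differed between smooth-muscle spots and the other kept spots in edgeR's quasi-likelihood test of the difference. The difference was more negative in smooth-muscle spots for Tagln (-3.05 on the log2 scale), Fbln5 (-2.78), Vim (-1.96), Igfbp2 (-1.73), Fmod (-1.49), C4b (-1.43) and Gfap (-1.27). It was more positive for Pglyrp1 (1.501) and Dusp1 (1.31), whose calls were each lost under 13 of 21 alternatives. Tagln and Fbln5 passed under each alternative except those without control 1 and without control 2. No group held 4 or more libraries, so single libraries far from the others were not looked for by rule.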

How the results depend on the processing

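The count of 602 genes in smooth-muscle spots was 232 with DESeq2, 160 in the top 2%, 1208 in the top 8%, 326 with at least 5 UMIs, 142 with spots thinned to 5000 UMIs and 334 with the same share limit in all libraries (chosen after seeing the data). Leaving out 1 library gave 366 to 953, lowest without control 2 and highest without knockout 1. With the replicate block it was 524. In the other kept spots the count was 2658 at a mean of at least 20 CPM, against 6763; of the 6763, 2862 were still tested and 2402 still called. The count of 12 differences between spot classes was 20 without a filter, 4 at 20 CPM, 20 with DESeq2, 4 with the replicate block, 23 in the top 2%, 3 in the top 8%, 114 with at least 5 UMIs, 278 with Myh11 alone, 4 without fibroblast-rich spots, 7 without pituitary or choroid plexus spots, and 0 to 21 leaving out 1 library. Among settings added after seeing the data it was 79 with edgeR's default fit, 66 with that and a robust prior, 5 without the robust prior and 22 with the same limit. This count therefore rests on the setting chosen. The 3118 differences from other kept spots were 1787 at 20 CPM, 239 with the replicate block, 532 thinned, 1593 without fibroblast-rich spots and 714 to 3423 leaving out 1 library. Thinned shares rich in arterial endothelial genes were 20% and 40.3% in the knockouts, against 62.1% and 62.5% in the controls; in fibroblast genes 2.86% and 14.5%, against 41.4% and 37.5%; in pan-endothelial genes 11.4% and 40.3%, against 51.7% and 44.6%. Direction turned for C1qb (-0.00346), Ccn2 (-0.14), S100a10 (-0.082) and Slc17a6 (0.68) with Myh11 alone, Fbln5 in the top 2% (-0.00226) and thinned (-0.44), Ifitm3 thinned (-0.029), and Vip with Myh11 alone (0.10, from other kept spots). The cause was not tested. Libraries with the same replicate number did not deviate together, which cannot exclude a pairing with so few libraries a group. Few UMIs per spot limit all of these.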
